A study of Caenorhabditis elegans with 2 samples.

Results

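The 47 protein-coding genes described here encode ubiquitin-conjugating enzymes (21 ubc genes), Skp1-related proteins (20 skr genes) and cullins (6 cul genes) of Caenorhabditis elegans, out of 19973 protein-coding genes in all. The rule takes genes by name, those whose symbol is ubc-, skr- or cul- followed by a number, and uses no binding value, although the families were picked with earlier results of these data known. Binding was read from chromatin immunoprecipitation and sequencing (ChIP-seq) of a GFP-tagged transcription factor in whole L4 larvae, the last larval stage. The 2 libraries were biological replicates of 1 group: strain OP355, of genotype unc-119(tm4063) III with the integrated array wgIs355. The animals were recorded as males and females together, of unstated age. The strain and antibody fields name mdl-1 as the tagged gene, while a free-text description names ZK337.2, and the labels do not say which promoter drives the tagged protein. MDL-1 belongs to the Mad family of bHLH-zipper factors, which pair with Max-like partners and bind the E-box CACGTG. With a lone group there was no comparison between conditions, and the values below are those of the authors' peak lists.

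Ubiquitin is passed from an activating enzyme (E1) to a conjugating enzyme (E2, encoded by most ubc genes) and then to a substrate with the help of a ligase (E3). In the cullin-RING ligases a cullin forms the scaffold, a RING protein at one end holds the loaded E2, and an adaptor at the other end holds a substrate receptor. For CUL-1 that adaptor is a Skp1-related protein, and the nematode has many of these where yeast and human have a single principal one. Some E2s carry a related modifier instead, such as SUMO or NEDD8, and NEDD8 attached to a cullin activates its ligase.

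A gene was called bound where a summit of the authors' irreproducible discovery rate (IDR) list, which holds 4293 peaks, fell in its promoter window, the 1000 bp before and the 200 bp after the annotated start. By this rule 7 of the 47 genes were bound (14.9%), against 10.9% of all protein-coding genes. Among them were ubc-3, ubc-6, ubc-21, ubc-22, ubc-25 and skr-16, which are described below. No cullin gene was among them. Of their 7 distinct peaks, 2 held CACGTG and 1 lay in an inverted repeat, and the letters of these 3 are shown. Each is the plus strand of ce11 from 100 bp before to 100 bp after the summit, 5′ to 3′, from the RefSeq sequence of the same assembly, with CACGTG in capitals at ubc-21/ubc-22 and skr-16 and the 2 arms of the inverted repeat in capitals at ubc-6.
ubc-21/ubc-22 (chrX:8869342-8869542): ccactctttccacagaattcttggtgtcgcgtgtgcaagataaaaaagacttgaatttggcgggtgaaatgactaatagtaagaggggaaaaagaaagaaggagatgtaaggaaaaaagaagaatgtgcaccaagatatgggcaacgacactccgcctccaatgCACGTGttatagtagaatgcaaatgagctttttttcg
skr-16 (chrIV:7168346-7168546): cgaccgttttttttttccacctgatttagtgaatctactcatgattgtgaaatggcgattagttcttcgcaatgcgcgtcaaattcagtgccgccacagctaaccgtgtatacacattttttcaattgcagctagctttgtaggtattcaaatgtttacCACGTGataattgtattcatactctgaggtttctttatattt
ubc-6 (chrII:7478963-7479163): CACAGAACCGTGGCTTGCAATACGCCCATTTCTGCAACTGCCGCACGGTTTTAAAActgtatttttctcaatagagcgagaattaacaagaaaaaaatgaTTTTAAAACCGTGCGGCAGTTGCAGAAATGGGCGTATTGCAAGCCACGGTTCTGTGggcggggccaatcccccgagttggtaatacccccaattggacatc

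The ubc genes held 6 of the 7 bound members. A share of 28.6% of the 21 ubc genes was bound (exact binomial 95% interval over genes 11.3 to 52.2%). So were 1 of 20 skr genes (5%, interval 0.127 to 24.9%) and 0 of 6 cul genes (interval 0 to 45.9%). These are all the protein-coding genes so named, so the intervals show only how coarse shares of so few genes are. Genes that share a peak, as ubc-21 and ubc-22 do, are not independent. In the list called on both replicates together, which holds 27577 peaks, 14 of 21 ubc genes (66.7%), 5 of 20 skr genes (25%) and 4 of 6 cul genes (66.7%) had a summit in the window, against 38.9% of all protein-coding genes. Replicate 1's own list put a summit in the windows of 12 ubc, 7 skr and 4 cul genes, where the share over all coding genes was 40.6%, and replicate 2's list in those of 13 ubc, 7 skr and 2 cul genes, where it was 39.7%. Both replicates' lists did so at 18 of the 47 genes (38.3%), against 28.7% of all coding genes. The families were not compared by a test, and the libraries hold whole animals, so that weak binding in many cells and strong binding in few cannot be told apart.

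**Figure D1:**
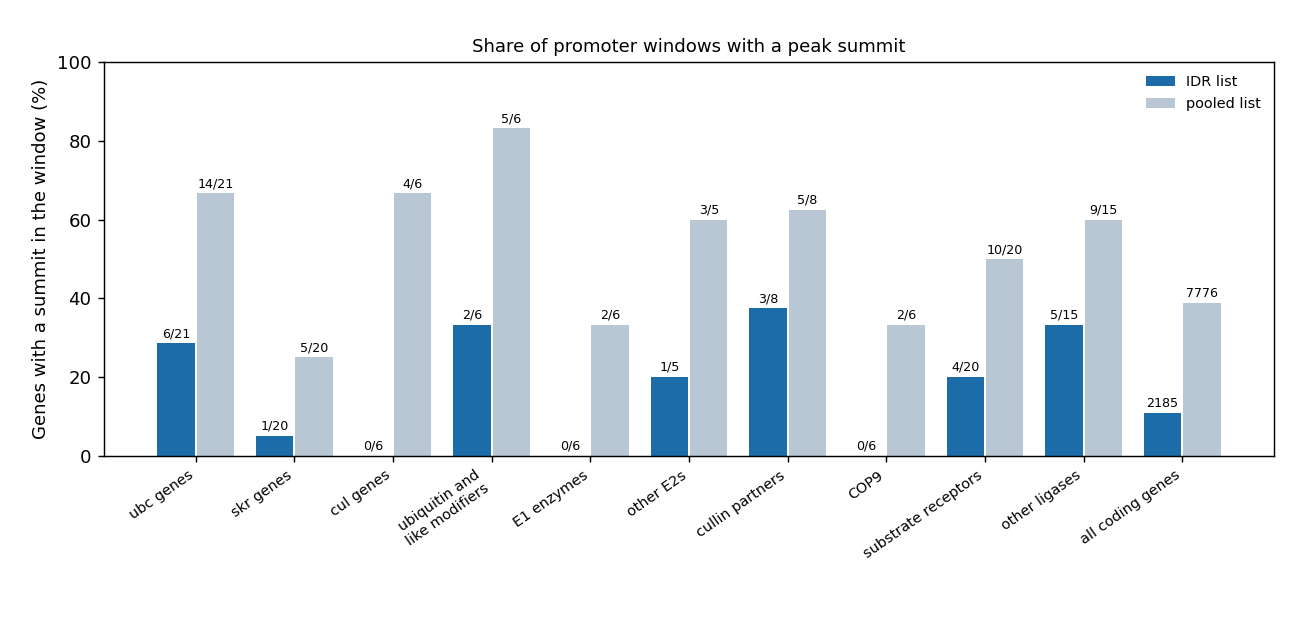
Share of genes (%) with a peak summit in the promoter window for the ubc, skr and cul genes, 7 sets of other ubiquitin pathway genes and all protein-coding genes, with bars for the IDR list and the pooled list and the number of genes above each bar. In the IDR list 6 of 21 ubc, 1 of 20 skr and 0 of 6 cul genes had a summit, against 10.9% of all coding genes.

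The bound members had peaks of middle to high strength. The signal is the value the authors' peak caller gave each peak, and its scale is not stated. Signals ran from 45.6 to 1411 in the IDR list, with a median of 75.0. The strongest peaks in the windows of the 7 bound members had a median signal of 99.0, and that of all bound genes was 76.9. All 7 members exceeded 76.9. Their summits lay at a median of 308 bp upstream of the start, and those of all bound genes at 252 bp. All 7 distinct peaks of the members were 396 bp long with intergenic summits, and no member had an IDR summit inside its own gene body.

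ubc-25 (WBGene00006720, chrI:10562970-10564903, plus strand), related to the genes of the human UBE2Q enzymes, had the strongest peak of the members named here. That peak (chrI:10562453-10562848) ranked 426 in the IDR list at a signal of 188, within the top 9.92% of the list. It had 90.8 in replicate 1's list and 96.3 in that of replicate 2, so the replicates were nearly equal. The summit lay 319 bp upstream, and no other coding gene's window held it.

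ubc-3 (WBGene00006702, chrI:1698349-1701128, plus strand) encodes the homolog of yeast Cdc34, the E2 that works with SCF ligases, those built on CUL-1 and a Skp1-related protein. Its peak (chrI:1697843-1698238) ranked 1109 at a signal of 113, and the lists of the replicates gave 69.1 in replicate 1 and 41.9 in replicate 2. The summit lay 308 bp upstream, and the next coding gene on that side, on the opposite strand, began 4891 bp from the start of ubc-3.

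ubc-6 (WBGene00006703, chrII:7479187-7480713, plus strand) encodes the homolog of yeast Ubc6, an E2 anchored in the membrane of the endoplasmic reticulum. It was the lone member with 2 IDR summits in its window. Their 2 peaks overlap, and the replicate values at both come from the same replicate peaks. The stronger peak (chrII:7478664-7479059) reached 88.3, with 57.7 in replicate 1 and 30.2 in replicate 2, and its summit lay 325 bp upstream of ubc-6 and equally far from the start of aka-1, an A-kinase anchor protein gene on the opposite strand. The weaker peak (chrII:7478865-7479260) had a signal of 57.0 and rank 3208, and its summit lay 124 bp upstream of ubc-6. That summit is the first base of the second arm of a perfect inverted repeat, whose arms are 44 bp apart, as printed above. The arms are 56 bp long inside the 201 bp window and 62 bp when followed past its edge. Repeats of this kind, with perfect arms of at least 20 bp within 100 bp of the summit, occurred at 10 of the 4293 IDR peaks (0.233%), a measure chosen after these letters were seen. Of the 30-mers around the weaker summit, 76.2% occur more than once in the genome, the other arm included, and 19.8% around the stronger one. The part of this repeat content in the peaks was not tested.

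ubc-21 (WBGene00006716, chrX:8869625-8871901, plus strand) and ubc-22 (WBGene00006717, chrX:8867603-8869162, minus strand) lie head to head with 462 bp between them and share 1 peak. That peak (chrX:8869244-8869639) ranked 1393 at a signal of 99.0, and the lists of the replicates gave 64.9 in replicate 1 and 31.2 in replicate 2. Its summit lay 183 bp upstream of ubc-21 and 280 bp upstream of ubc-22, so the peak cannot be given to one of them. With each peak given to the nearest start, ubc-22 was no longer counted, which left 6 of 47 members bound (12.8%), against 8.83% of all coding genes. Of all bound genes, 37.0% shared their strongest summit with another coding gene's window, and 3 of the 7 members did.

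skr-16 (WBGene00004822, chrIV:7168710-7169255, plus strand) was the lone bound gene of the Skp1-related family. Its peak (chrIV:7168248-7168643) ranked 1981 at a signal of 79.6, and the lists of the replicates gave 44.1 in replicate 1 and 33.8 in replicate 2. The summit lay 264 bp upstream of the start, and the next coding gene upstream, on the same strand, ended 779 bp from that start.

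**Figure D2:**
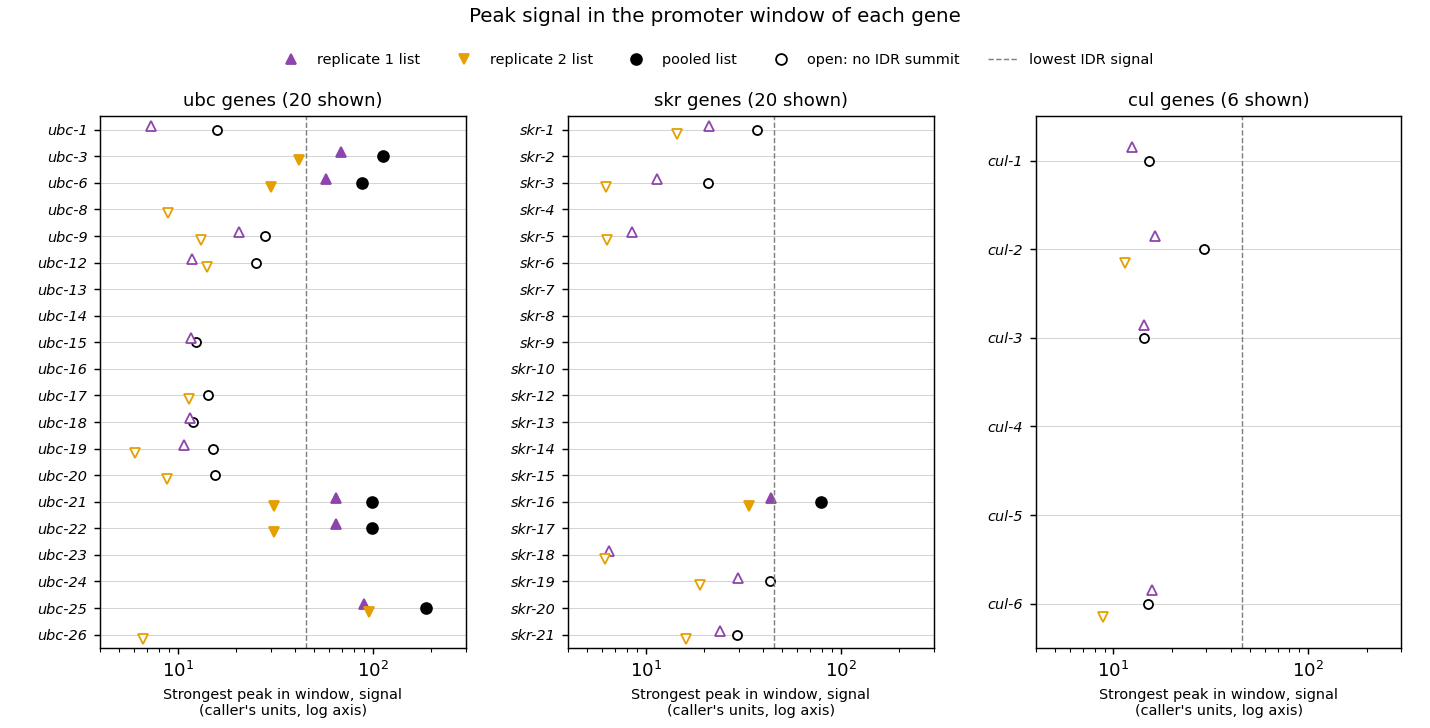
Signal of the strongest peak in the promoter window of each gene (caller's units, log axis) in the lists of replicate 1 (upward triangles), replicate 2 (downward triangles) and both together (circles), by family. Filled symbols mark genes with an IDR summit, open symbols genes without one, and an empty line a gene with no summit in any of these lists. The filled circles run from 79.6 at skr-16 to 188 at ubc-25, and the open ones stay at or below 43.6.

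The replicate lists were called separately, so their signals need not share a scale. The replicates differed more at some member peaks than at others. The log2 ratio of replicate 1 to replicate 2 was -0.09 at ubc-25, 0.38 at skr-16, 0.72 at ubc-3, 0.93 at the stronger ubc-6 peak and 1.06 at the peak of ubc-21 and ubc-22. The median over the 6 distinct strongest peaks of the bound members was 0.55 ± 0.48 (SD over peaks), and over the 4279 IDR peaks with a value in both lists it was 0.10 ± 0.55. The weaker ubc-6 peak is left out because the strongest replicate peak overlapping it is that of its neighbour. With the IDR peaks kept that were among the strongest 4293 of both replicates' lists, 7 of the 47 members (14.9%) were bound, against 8.10% of all coding genes. Peaks are not replicates, and no test was made of this difference.

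**Figure D3:**
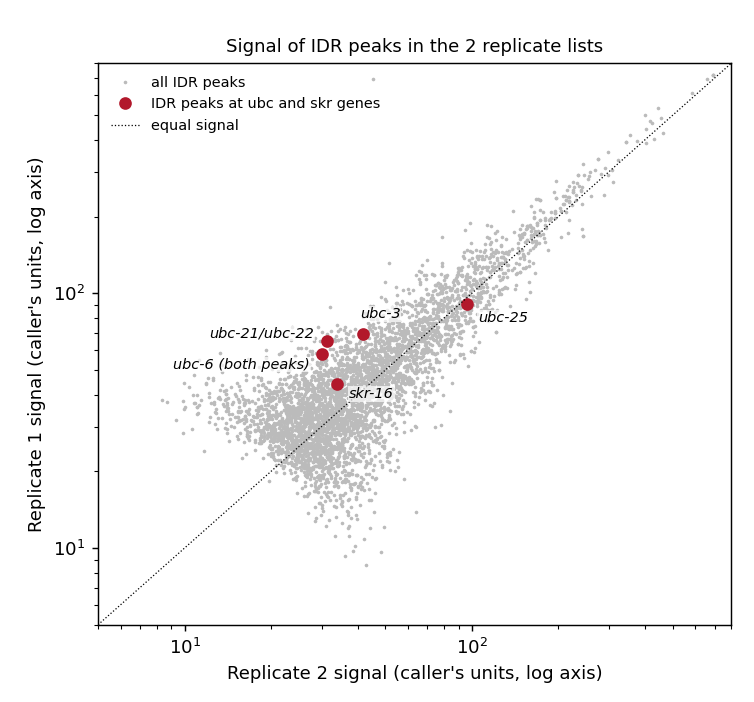
Signal in replicate 1 against replicate 2 (caller's units, log axes) for all 4279 IDR peaks overlapped in both lists (grey) and for those at ubc and skr genes (red), with the line of equal signal. The peak at ubc-25 lies close to the line, and those at ubc-3, ubc-6 and ubc-21/ubc-22 lie above it, with log2 ratios of 0.72 to 1.06.

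CACGTG lay within 100 bp of the summit at 3 of the 7 bound members, ubc-21, ubc-22 and skr-16, against 15.5% of all bound genes at their strongest peak. Counted by peak it lay at 2 of the members' 7 distinct peaks, against 18.4% of all IDR peaks and 3.28% of equally long windows centred 400 bp to either side of them. In both members' peaks the site began over 50 bp from the summit, 64 bp towards ubc-21 and 59 bp towards skr-16, so that with 50 bp to either side no member peak held it, against 13.2% of all IDR peaks. GAGAGA, a simple repeat read on both strands, lay within 100 bp of the summits at ubc-3, ubc-25 and the stronger ubc-6 peak, 3 of 7 peaks, against 44.0% of all IDR peaks and 10.4% of the flanking windows. GC content over the same 201 bp had a median of 47.3% at the members' peaks and 42.8% at all IDR peaks. Over the whole promoter window, CACGTG occurred at 4 of the 7 bound members and 7 of the 40 others (17.5%), against 27.9% of all bound and 17.2% of all unbound coding genes. These are matches of letters and not shown to be sites.

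A further 16 members had a pooled-list summit in the window that did not reach the IDR list, with signals from 12.0 to 43.6. The IDR peaks are the pooled peaks with signals of 45.6 or more. Just below that value was skr-19, with a pooled signal of 43.6, and 29.9 and 19.0 in replicates 1 and 2. The peak lay 582 bp upstream, and skr-19 was bound by the strongest 4293 peaks of replicate 1 alone.

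Next came skr-1 (chrI:9471550-9472641), the main Skp1 homolog of the SCF ligase, with a pooled signal of 37.4, and 21.1 and 14.5 in replicates 1 and 2. Its neighbour skr-2, which ends 912 bp upstream on the same strand, had no summit of any list, and the coding sequences of the pair are 83.1% identical. It was named after its values were seen. skr-21 had a pooled signal of 29.5 at 297 bp upstream. It reached 24.2 at 366 bp in replicate 1 and 16.1 at 188 bp in replicate 2, so these need not be 1 peak. ubc-9, whose product conjugates SUMO, had 28.2, with 20.6 and 13.1 in replicates 1 and 2. The strongest summit of replicate 2 at ubc-9 lay 410 bp upstream, away from the pooled one at 190 bp. ubc-12, whose product conjugates NEDD8, had a pooled signal of 25.2, with 11.9 and 14.2 in replicates 1 and 2. The pooled signals of these genes lay between the pooled list's median of 17.4 and the lowest IDR signal.

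**Figure D4:**
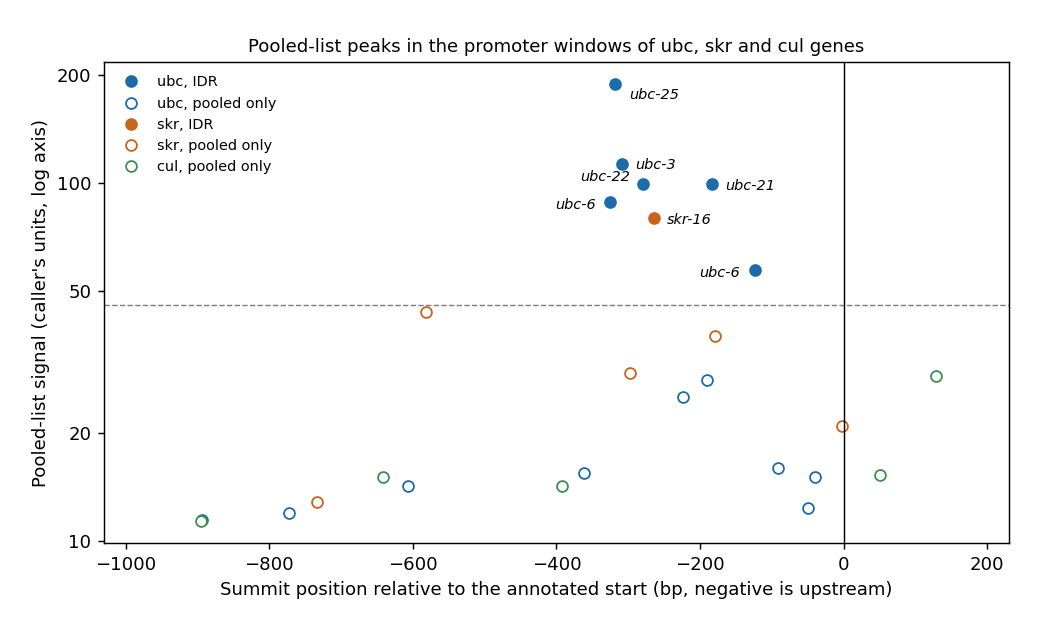
Position of each pooled-list summit relative to the annotated start (bp, negative is upstream) against its signal (caller's units, log axis) for the ubc, skr and cul genes. Filled points passed IDR and lie from 124 to 325 bp upstream with signals of 57.0 to 188, open points did not, and the dashed line marks the lowest IDR signal, 45.6.

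The cullin genes had weak peaks or none. cul-2, the scaffold of ligases with elongin C adaptors, had the highest pooled signal, 29.0 at 129 bp downstream of the start, with 16.3 in replicate 1 and 11.4 in replicate 2. cul-1, the SCF scaffold, had a pooled signal of 15.3, cul-6, which acts with Skp1-related proteins in the response to intracellular pathogens, one of 15.1, and cul-3, the scaffold for BTB-domain adaptors, one of 14.3. All 3 were below the pooled median of 17.4, and replicate 2's list held no summit in the windows of cul-1 and cul-3. At cul-6 the strongest summit lay 642 bp upstream in the pooled list. In replicate 1's list it lay 867 bp upstream and in replicate 2's 388 bp, so these need not be 1 peak. cul-4, whose ligase limits DNA replication to once per cell cycle, and cul-5 had no summit in any list. The nearest IDR summit lay 1229 bp upstream of cul-5, with a signal of 52.7, and 4253 to 14168 bp from the starts of the other five.

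The other pooled-list members, cullins aside and named after their values were seen, had weaker peaks. The highest was 21 at skr-3, whose product acts in the response to intracellular pathogens, and skr-4, 87.4% identical to it in coding sequence, had no summit in any list. ubc-1, the homolog of the DNA repair enzyme RAD6, had 16, and ubc-15, ubc-17, ubc-18, ubc-19 and ubc-20 had 12.0 to 15.5. Only replicate lists held a summit at ubc-8, ubc-26, skr-5 and skr-18, with signals of 6.17 to 8.91, below the medians of 9.91 in replicate 1's list and 9.79 in that of replicate 2.

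In 20 of the 47 windows (42.6%) no list had a summit, against 46.9% of all coding genes. They were 5 ubc, 13 skr and 2 cul genes. Among the skr genes are the close copies skr-7, skr-8, skr-9, skr-10, skr-12, skr-13 and skr-14, named after their values were seen, none of which had a summit in any list. Each shares 89.0 to 97.9% of its coding sequence with its closest relative, and skr-8, skr-9, skr-12 and skr-13 lie together at chrIV:17162097-17167792. In the windows of those 4, 18.4 to 36.4% of 30-mers occur more than once in the genome, and in those of skr-7, skr-10 and skr-14 0.0853 to 2.47% do. Over all coding genes, windows with more than 10% of such 30-mers had no summit of any list in 71.0% of cases, against 42.7% of the other windows. The other member windows above 10% were those of ubc-3 (24.6%) and ubc-6 (16.9%), both bound, and cul-5 (14.7%), with no summit in any list. The part of repeated sequence in the empty skr windows was not tested.

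Among the ubc genes, the closest coding sequence by this measure was 46.3 to 61.2% identical. Such values, which length differences lower, do not settle which genes are nearest relatives. No bound gene had a bound gene as its closest by this measure, where 28.6% of the ubc genes were bound. ubc-20, the closest to ubc-21 by this measure at 61.2%, had a pooled signal of 15.5. The start of ubc-20 is 706 bp from mxl-2, which encodes a Max-like protein, on the opposite strand. ubc-23, the closest to ubc-25 by this measure at 54.4%, had no summit in any list. Both were named after their values were seen.

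On chromosome X 2 of 7 members were bound, the ubc-21 and ubc-22 pair, against 15.2% of all coding genes there. None of the 9 members with a same-strand coding gene ending within 500 bp upstream was bound, against 6.12% of all coding genes so placed. Of the other 38 members 7 were (18.4%), against 12.0% of coding genes with no such neighbour. The part of such neighbours in the counts was not tested.

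Other genes of the ubiquitin pathway were bound in 15 of 66 cases (22.7%), again against 10.9% of all coding genes. The list of 68 names, of which 2 did not match a coding gene, held no member. With 500 bp upstream in place of 1000 the count was 9 of 66 (13.6%), against 8.54% of all coding genes, and with IDR peaks at or above the list's median signal it was 8 (12.1%), against 5.62%. No bound pathway gene held CACGTG within 100 bp of its strongest summit, and 6 of 15 held GAGAGA, against 15.5% and 39.2% of all bound genes, so the GAGAGA share was close to that of bound genes in general.

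The set listed as substrate receptors of cullin ligases had the strongest peaks of the pathway. Of its 20 genes 4 were bound, against 10.9% of all coding genes. Not every gene of this set is an established receptor of a cullin ligase. wdr-23, whose product brings the stress factor SKN-1 to a CUL-4 ligase, reached 287, with 137 in replicate 1 and 151 in replicate 2, at 90 bp upstream. zyg-11, a receptor of CUL-2, had 279, with 146 and 131 in replicates 1 and 2, at 704 bp upstream. lin-23, the F-box homolog of beta-TrCP in SCF ligases, had 254, with 146 and 110.1 in replicates 1 and 2, at 967 bp upstream, near the edge of the window. mel-26, the BTB adaptor of CUL-3, had 87.8, with 59.3 and 27.8 in replicates 1 and 2, at 592 bp upstream. The strongest summits of zyg-11, lin-23 and mel-26 thus lay outside the shorter window of 500 bp upstream. Any bound gene had a stronger peak than the cullin genes, since none of these reached the IDR list.

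Among the cullins' other partners 3 of 8 were bound (37.5%), against 10.9% of all coding genes. dcn-1, whose product promotes the attachment of NEDD8 to cullins, reached 151, with 57.8 in replicate 1 and 93.1 in replicate 2. rbx-1, the RING subunit of cullin ligases, had 53.9, with 24.6 and 27.5 in replicates 1 and 2. elb-1 (elongin B) had 48.6, with 21.9 and 24.5, and its summit lay nearer to the start of another gene, Y41C4A.11. None of 6 COP9 signalosome genes, whose products remove NEDD8 from cullins, was bound. A count of 0 in so few genes does not stand apart from the share over all coding genes.

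None of 6 E1 genes was bound, and 1 of 5 other E2 and E2-variant genes was, against 10.9% of all coding genes. In so few genes neither count stands apart from that share. Against 10.9% of all coding genes, 2 of the 6 genes of ubiquitin and related modifiers were bound (33.3%). They were ubq-2, which encodes a ubiquitin fused to a ribosomal protein (61.1), and smo-1, which encodes SUMO (49.3). The ubq-2 summit lay nearer to the start of frg-1. Of the other ligases 5 of 15 were bound (33.3% of genes), against 10.9% of all coding genes. Signals of these ligase genes were highest at wwp-1 (166), eel-1 (87.9), ufd-2 (57.5) and hecd-1 (57.1). The fifth was sli-1, the Cbl homolog (49.3), named after its value was seen. The eel-1 peak overlapped one of 52.9 in replicate 1's list and none in that of replicate 2.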

How the data were processed

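ChIP-seq peak lists of 2 biological replicates of whole L4 larvae were used, on the build ce11 only. The text files deposited beside the lists say that the authors called each replicate's peaks from its own alignments with a control, called the pooled list from both, and took the IDR peaks from all 3 lists. The signal value (column 7) and the −log10 q value (column 9) of each peak are as the authors deposited them. The −log10 q value was 3.80 at the members' IDR peaks except the weaker ubc-6 peak, at 3.33. No source used here names the caller, the aligner or the IDR threshold. Lists carry no read counts, so depth is unknown. The lists of both replicates held 29572 and 28282 peaks. All 4293 IDR peaks were found in the pooled list with the same position, signal and q value, and 4293 pooled peaks reached the lowest IDR signal. The ce10 lists were not used here.

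Gene positions came from Ensembl release 115 (WBcel235, the same assembly as ce11) and symbols from RefSeq or Ensembl. skr-11 is not annotated as protein-coding. Coordinates are 1-based. A peak's replicate value at an IDR peak is the strongest overlapping one, and elsewhere that of the strongest summit in the window. Coding-sequence identity is identical bases of a global alignment over the longer sequence, in place of protein identity, which was planned, because no protein table was at hand. Repetition was measured as the share of 30-mers, on either strand, that recur in the nuclear genome. No significance test was made, since the series has 1 group. The window rule was tested on simulated positions. Python 3.11.15, numpy 2.4.6, pandas 2.3.3, scipy 1.17.1, biopython 1.88 and matplotlib 3.10.9 were used.

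The members and lists were chosen with earlier results of these data known. Values of 1 member and 1 pathway gene are not reported here or plotted singly, although both enter the counts and medians. All other members with an IDR summit are named, then the 6 without one that had the strongest pooled peak, all cullins, and up to 4 of the strongest bound genes of each pathway set. Other genes are named where they share or adjoin a member's peak, or with a remark that the choice followed the values. Alternatives covered the window, summit or any base, signal, gene assignment, gene start, motif window, replicate value and each replicate alone.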

Additional observations from a re-analysis of the deposited data

How the results depend on the processing

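The 7 bound members were the same genes with a window of 500 bp upstream, where 8.54% of all coding genes were bound. They were also the same with any base of the peak in the window (12.0% of all coding genes). The same held with IDR peaks at or above their median signal (5.62%) and with peaks among the strongest in both replicates (8.10%). It held too with any transcript start (12.1%) and without replicate 1 (10.7%). The count was 9 with 2000 bp upstream, which added ubc-8 and cul-5 and so gave 1 cullin gene where there had been 0, against 14.7% of all coding genes. It was 6 with each peak given to the nearest start, which lost ubc-22, against 8.83% of all coding genes. Leaving out a replicate gave 7 to 8 members, against 10.7% of all coding genes without replicate 1 and 10.6% without replicate 2. These were 6 ubc genes in both cases, 1 to 2 skr genes (2 without replicate 2, when skr-19 was added) and 0 cul genes. Pathway genes numbered 15 to 16 with a replicate left out. They numbered 9 with 500 bp upstream and 8 with IDR peaks at or above their median signal. Members with CACGTG numbered 0 with 50 bp to either side of the summit, against 13.2% of all IDR peaks, and 3 with 250 bp. Of those 3, ubc-21 and ubc-22 count through their shared peak. No share over all peaks is given for 250 bp, so that count has no background. The median log2 replicate ratio at the members' peaks was 0.44 after scaling each replicate by its median at IDR peaks and 0.55 with the replicate peak nearest the summit. The median signal at bound members was 99.0 with the summit nearest the start. The cause of these changes was not tested beyond what each setting adds or removes. Depth is unknown, so a window with no peak shows only that none was called. No paired analysis was possible because the series has 1 group.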
